A study of Saccharomyces cerevisiae with 54 samples.

Results

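The 119 genes described here are those whose mRNA stood highest in spores of budding yeast, with 0 h in sporulation medium left out of the comparison. A gene was taken when its spore mRNA was at least 100 RPKM and at least 2 times the highest of the 7 other states, which were exponential growth and 1.5, 3, 4.5, 6, 8 and 10 h in sporulation medium. RPKM is reads per kilobase of gene, scaled to the reads of the library. The tables list 6679 genes, and 4320 of them had spore mRNA of at least 100 RPKM. The members were thus chosen by the course's own mRNA values, so the mRNA levels and ratios below describe the set and carry no test. With 0 h as deposited added to the rule, 63 of the 119 stayed. Applied to libraries divided by their medians, the rule took 75 genes, 72 of them among the 119.

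All samples were Saccharomyces cerevisiae of the SK1 background, a strain used for meiosis because it sporulates efficiently. The course holds spores, cells at 0, 1.5, 3, 4.5, 6, 8 and 10 h in sporulation medium, MATa/a cells at 4.5 h, labelled as non-meiotic, and exponentially growing cells in rich medium (YEPD), and gives each state 1 library of ribosome footprints, 1 of mRNA and 1 of total RNA. The labels give no age for the spores and class them as meiotic cells in sporulation medium, and the header of the growing-cell mRNA column names another replicate number than the rest of the course. A parallel set holds 2 footprint libraries and 2 mRNA libraries each at 6 and 1.5 h, with 2 footprint libraries and 1 mRNA library (a pair of columns with the same values, counted once) at 3 h, and 1 footprint library each at 0 h and of growing cells. The 0 h mRNA library of the parallel set was not used. A further set is mRNA from 1 strain, brun95, in sporulation medium with Ndt80 induced (5 libraries, at 5.75, 6, 6.5, 7 and 7.75 h) or without induction (4 libraries, at 4, 5.5, 6 and 7.75 h), Ndt80 being the transcription factor that drives exit from meiotic prophase. The labels do not say whether libraries of 1 group stem from separate cultures, so p-values reflect only how far these libraries lie apart, which may be technical.

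A yeast spore is a resting haploid cell, made when a starved diploid passes through meiosis and wraps each nucleus in a membrane and a thick wall. Resting spores stay alive for long periods without food or water and germinate when sugar returns. They are known to carry stored mRNA and to be rich in small hydrophilic proteins (hydrophilins), which are linked to survival of drying. A ribosome footprint is the stretch of mRNA that a ribosome shields from nuclease, so footprint reads count ribosomes on a gene's message.

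Read numbers recovered from the RPKM steps came to 13654230 in the spore mRNA library and 5397872 in the spore footprint library, and to between 1030720 and 24714945 over all 42 footprint and mRNA libraries. Of 8 spore wall and late sporulation markers, SPS100 is a member; the other 7 summed to 1043 RPKM of mRNA in spores, against 22.4 RPKM in growing cells and 25440 RPKM at 10 h, and each of the 7 was above its level in growing cells. The 7 markers of growing cells summed to 4795 RPKM in spores and 7786 RPKM in growing cells, of which the histone gene HTA1 gave 4462 and 6227 RPKM. The other 6 summed to 333 RPKM in spores and 1558 RPKM in growing cells, none of the 7 was at 0 or higher in spores, and their part in the results was not tested. In these bulk samples, a change in the number of cells of a type and a change in RNA per cell cannot be told apart.

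Spore mRNA of the members ranged from 124 to 68059 RPKM, with a median of 1049 RPKM. The median ratio to the highest other state was 2.77, and 50 members reached a ratio of 3, 15 a ratio of 5 and 2 a ratio of 10. The members' median mRNA level stood at 105 RPKM in growing cells and between 170 and 235 RPKM from 1.5 to 10 h. The highest of the 7 other states was growth for 32 members, 10 h for 27, 3 h for 20, 1.5 h for 16, 8 h for 14, 6 h for 9 and 4.5 h for 1. The members just above the level limit were YKL097C at 124 RPKM, HXT6 at 131 RPKM and YDL187C at 173 RPKM. Just below it lay YIL086C at 79.8, YLR255C at 66.4 and YBL096C at 59.7 RPKM. At the ratio limit, HMT1, GPD2 and GRE2 were just inside at 2.00, 2.01 and 2.01, and FMP33, YDL124W and SUL2 just outside at 1.99, 1.99 and 1.98. Another 131 genes above the level limit had ratios of 1.5 to 2.

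**Figure D1:**
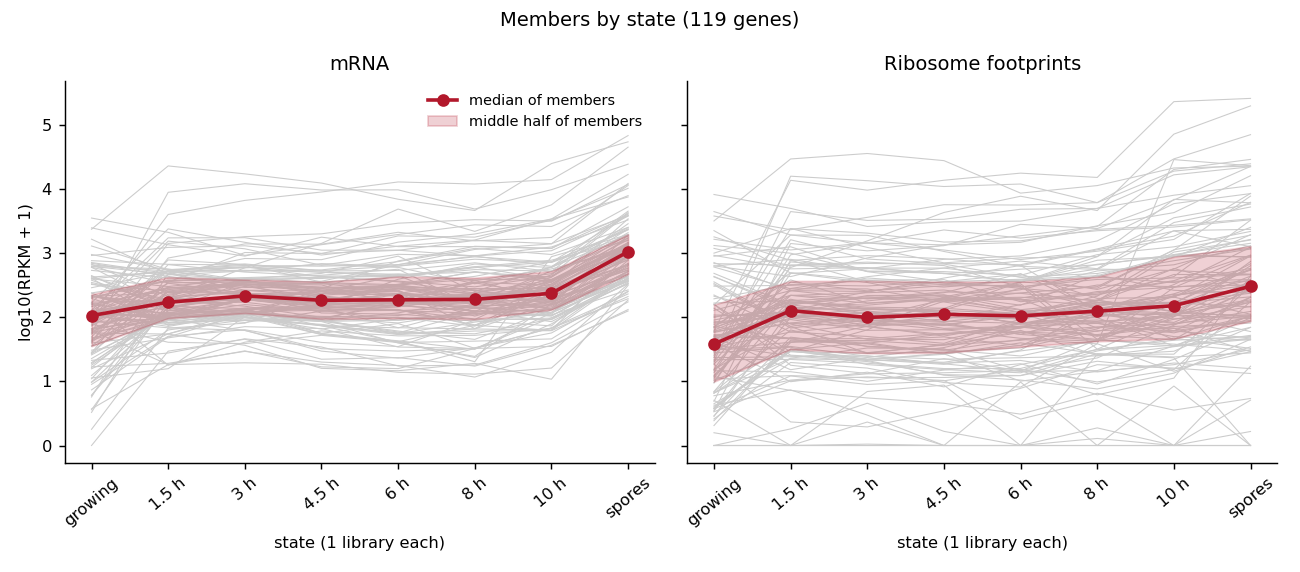
mRNA (left) and ribosome footprints (right) of the 119 members in 8 states, as log10(RPKM + 1), with growing cells first, the hours in sporulation medium in order and spores last. Each grey line is 1 member, the red line is the median and the band spans the quartiles; the mRNA medians stay between 170 and 235 RPKM from 1.5 to 10 h and reach 1049 RPKM in spores, while the footprint median reaches 302 RPKM.

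In footprints, a minority of members met the ratio that chose them in mRNA. Footprints come from libraries that the choice of members did not use, although from cells of the same states. Of the 119 members, 24 had spore footprints at least 2 times the highest of the same 7 other states, a mark that 1.81% of all genes and 1.25% of the 4320 genes with spore mRNA of at least 100 RPKM also reached. For 70 members the spore value was the highest of the 8 states, beside 15% of the 4320 genes; with 0 h and the MATa/a cells added it was highest for 51, beside 10.6%. For 49 another of the 8 states was higher, which was growth for 19, 10 h for 9, 1.5 h for 8, 3 and 8 h for 5 each, 4.5 h for 2 and 6 h for 1. The members' median footprint level was 302 RPKM in spores, against 37.1 RPKM in growing cells and 151 RPKM at 10 h. On the log2(RPKM + 1) scale the median member was 0.60 higher in spores than at 10 h in footprints, against 0.10 over all genes. In mRNA the same difference was 1.95, against 0.29 over all genes. Footprints of 92 members were higher in spores than at 10 h, beside 57.3% of the 4320 genes. Footprints over mRNA in spores, relative to the median gene, had a median of -0.67 (log2) over the 113 members with enough signal, against 0.30 at 10 h; the spore mRNA in this ratio chose the members, so it is a description. Across the 119 members, the log2 ratio of spore to highest other state in mRNA and in footprints correlated with Pearson's r of 0.41 and Spearman's rho of 0.33, over points that share the same 8 states and libraries.

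In the total RNA libraries, most members met the same ratio. In total RNA the spore value was at least 2 times the highest of the 6 hours from 1.5 to 10 h for 88 of 119 members, beside 6.68% of all genes and 9.26% of the genes with spore mRNA of at least 100 RPKM. The spore value was above all 6 hours for 117 members, beside 39.9% of the 4320 genes. With each library divided by its median, 61 members reached 2 times, beside 3.67% of all genes. All 24 members with the footprint mark also had the total RNA mark. Of the 4320 genes, 54 had the footprint mark and 30, or 0.694%, had both. Total RNA is a second measure of RNA in the states whose mRNA chose the members. The growing-cell total RNA column is on another scale and was left out.

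**Figure D2:**
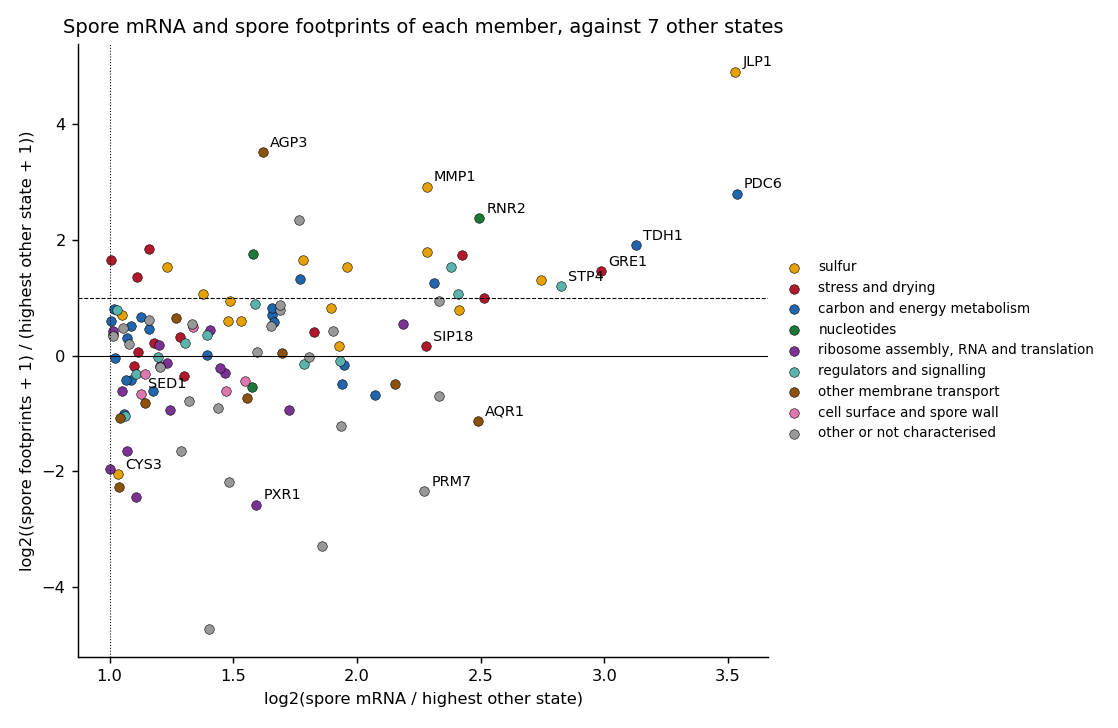
Each point is 1 of the 119 members, coloured by role; the horizontal axis is the log2 ratio of spore mRNA to the highest of 7 other states and the vertical axis the same for footprints, with 1 RPKM added. The dashed line marks a footprint ratio of 2, with 24 members at or above it in RPKM as deposited, and the dotted line the mRNA ratio of 2 that chose the members.

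Of the 10 members with the highest spore mRNA, 5 have roles in stress and drying, and the others were SED1, ENO1, TDH1, DPC7 and ILV5. SIP18, a hydrophilin linked to survival of drying, had 68059 RPKM of mRNA in spores, against 104 RPKM in growing cells and 4002, 6634, 8971, 12872, 11948 and 14020 RPKM at 1.5, 3, 4.5, 6, 8 and 10 h. Its footprints stood at 258589 RPKM in spores, against 60.2 RPKM in growing cells, 9589 to 17662 RPKM from 1.5 to 8 h and 230110 RPKM at 10 h. The footprint level of SIP18 was thus already near its spore value at 10 h, where its mRNA was not. GRE1, another hydrophilin, had 44896 RPKM of mRNA in spores, against 5.04 RPKM in growing cells and 201 to 5662 RPKM over the hours. GRE1 footprints were 197451 RPKM in spores, against 19.0 RPKM in growing cells, at most 7705 RPKM up to 8 h and 71673 RPKM at 10 h, a ratio of 2.75 to the highest other state. These 2 are members among 7 hydrophilin genes listed, of which 5 had their highest mRNA in spores. Of all 6679 genes, 119 were members and 984 had their highest mRNA in spores.

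Other stress members followed in smaller amounts. SPG4 and SPG1, named for their role in stationary phase, had 24363 and 11334 RPKM of spore mRNA, and FMP16, which encodes a mitochondrial protein, had 11777 RPKM. SPG1 footprints were 22478 RPKM in spores, against 3.86 RPKM in growing cells and 6724 RPKM at 10 h, the highest of the hours. HSP30, a heat shock protein of the plasma membrane, had 269 RPKM of footprints in spores, 3.62 times its highest other state. GRE2, an aldehyde and ketone reductase, had 912 RPKM of spore footprints, 3.15 times, and GTO1, a glutathione transferase, had 331 RPKM, 2.58 times. GRX8, a glutaredoxin, had 558 RPKM of footprints in spores, 1.17 times its value at 6 h. Of the 14 members with stress or drying roles, 5 had the footprint mark and 12 were highest in spores in footprints. Of the 4320 genes with spore mRNA of at least 100 RPKM, 1.25% had that mark and 15% were highest in spores. The other 2 stress members were MSC1 and ECL1, at 0.88 and 0.78 times their highest other state. Among lists written from general knowledge, 5 of 25 stationary phase genes, 1 of 24 chaperones and none of 18 trehalose and glycogen genes were members, where members make up 1.78% of all genes. SED1, a stationary-phase cell wall protein, came next to SIP18 in mRNA, at 54362 RPKM in spores and 24912 RPKM at 10 h. Its footprints were 22676 RPKM in spores, below 35746 RPKM at 3 h.

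**Figure D3:**
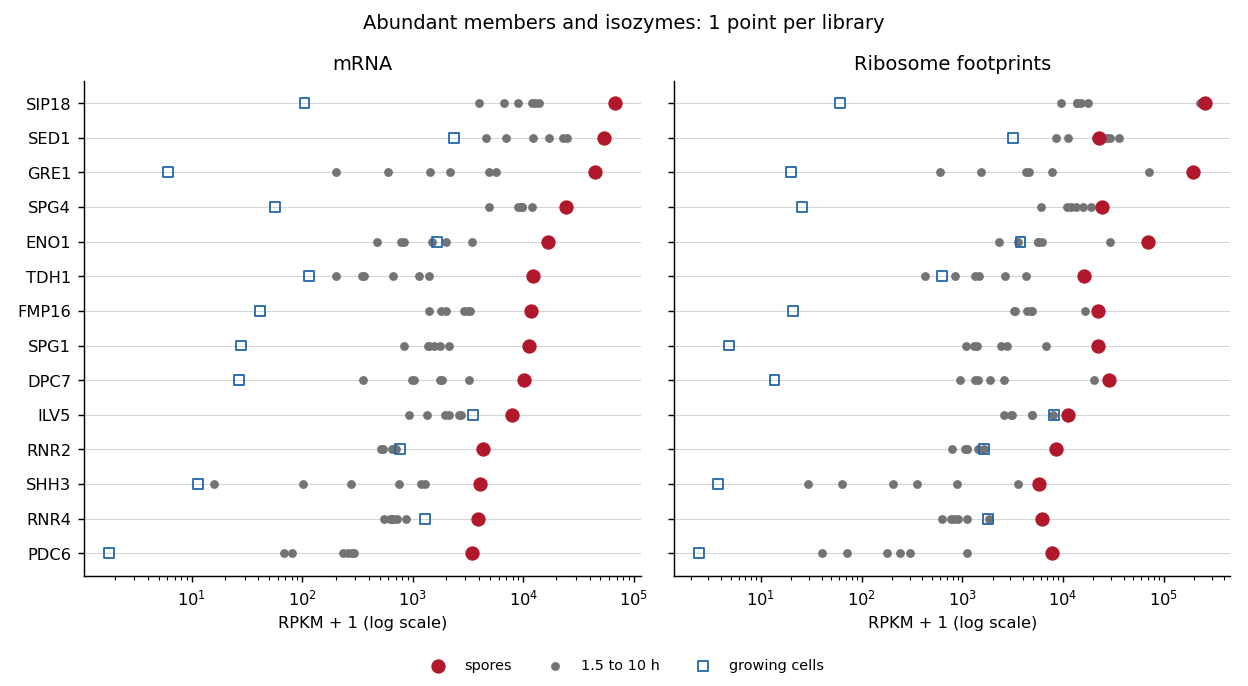
mRNA (left) and footprints (right) of 14 abundant members and isozymes, as RPKM + 1 on a log scale; red points are spores, grey points the 6 hours from 1.5 to 10 h and blue squares growing cells, 1 library each. Spore mRNA lies right of every other point in all 14, as the choice of members requires, while SIP18 and SED1 footprints lie close to or inside the range of the hours.

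The set held 16 genes of sulfur metabolism. Yeast takes up sulfate, reduces it in several enzyme steps to sulfide and joins the sulfide to a carbon chain to make homocysteine, from which methionine, cysteine and glutathione follow. Of 40 genes of sulfate assimilation, sulfur amino acids and their transport, a list written after these values were seen, the 16 were members and 29 had their highest mRNA in spores. Over all 6679 genes, 119 were members and 984 had their highest mRNA in spores. Because the sulfur list was written with these values known, its counts are a description. Of the 16 members, 8 had the footprint mark and 15 were highest in spores in footprints. Of the 4320 genes with spore mRNA of at least 100 RPKM, 1.25% had that mark and 15% were highest in spores. All 16 had the total RNA mark, which left out growing cells.

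Uptake and reduction of sulfate came first. SUL1, the sulfate permease, had 1133 RPKM of mRNA in spores, against 8.68 RPKM in growing cells and 62.3 to 233 RPKM over the hours. Its footprints were 364 RPKM in spores, against 1.05 RPKM in growing cells and 35.8 to 105 RPKM over the hours, with no overlap. MET3, ATP sulfurylase, had 740 RPKM of footprints in spores, 2.10 times its value at 1.5 h. MET14, the next kinase, had 680 RPKM, 1.78 times. MET5, a subunit of sulfite reductase, had 635 RPKM, 2.90 times, and MET1, which makes the siroheme of that enzyme, had 68.4 RPKM, 3.25 times. Not all genes of the route were raised in spore footprints. Outside the set, SUL2, MET10, MET16 and MET8 stood at 1.05, 0.95, 0.59 and 2.27 times their highest other states. Over the 40 listed sulfur genes the median footprint ratio was 1.13.

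Enzymes that use sulfide and carry it on followed. MET17, which makes homocysteine from sulfide, had 4138 RPKM of mRNA in spores, against 618 RPKM in growing cells and 189 to 565 RPKM over the hours. Its footprints were 3261 RPKM in spores, against 1313 RPKM in growing cells and 220 to 995 RPKM over the hours. MET2, which supplies the carbon chain, had 901 RPKM of footprints in spores, 1.92 times its highest other state. MET6, methionine synthase, had 1904 RPKM, 1.52 times. CYS4 and CYS3 turn homocysteine into cysteine. CYS4 had 1941 RPKM of footprints in spores, 1.64 times, whereas CYS3 had 541 RPKM in spores against 2239 RPKM in growing cells, and was the sulfur member with higher footprints in another state. STR3, which makes homocysteine from cystathionine, had 437 RPKM, 2.90 times.

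Transporters and salvage genes ranged widely in footprint ratio. JLP1, a dioxygenase that frees sulfite from sulfonates, had 328 RPKM of mRNA in spores, against 15.8 RPKM in growing cells and 10.7 to 28.4 RPKM over the hours. JLP1 footprints were 440 RPKM in spores, against 4.97 RPKM in growing cells and 5.17 to 13.7 RPKM over the hours, a ratio of 32.1. MMP1, the S-methylmethionine permease, had 302 RPKM of footprints in spores, 7.77 times its highest other state. MUP1, the methionine permease, had 556 RPKM, 1.74 times, YCT1, a cysteine transporter, 44.4 RPKM, 1.53 times, and DUG3, of glutathione breakdown, 204 RPKM, 1.13 times.

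The 8 sulfur genes with the footprint mark did not all keep it against further libraries. When the parallel footprint libraries of 1.5, 3 and 6 h and of growing cells were counted as states, 19 of the 119 members kept the mark, and 4 of the 5 that lost it were MET1, MET3, MET5 and STR3. Each of these 4 was highest in the parallel 1.5 h library of replicate 1, at 38.2, 603, 435 and 257 RPKM. SUT2 was the fifth, at 148 RPKM in the same library. JLP1, MMP1, SUL1 and MET17 kept it, with ratios of 22.2, 5.18, 3.49 and 2.27.

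**Figure D4:**
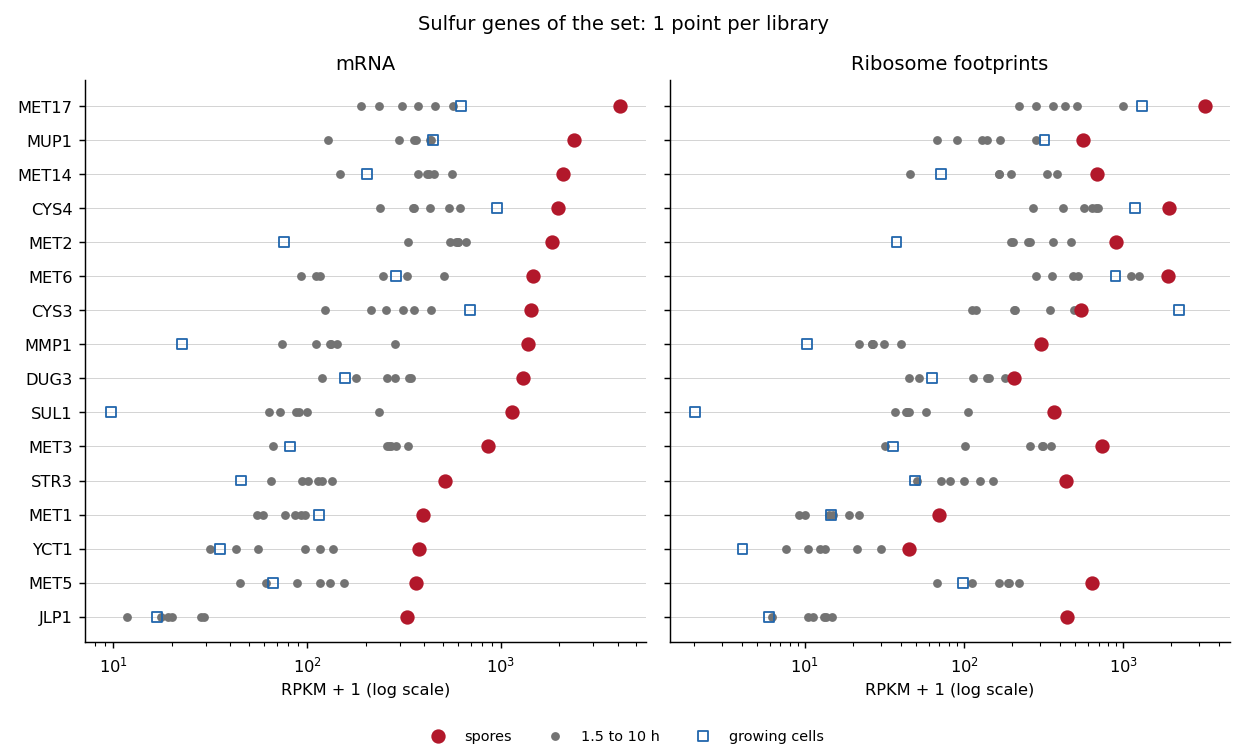
mRNA (left) and footprints (right) of the 16 sulfur members as RPKM + 1 on a log scale, ordered by spore mRNA; red points are spores, grey points the 6 hours from 1.5 to 10 h and blue squares growing cells, 1 library each. In footprints the red point is rightmost for 15 of the 16 genes, and growing cells are higher for CYS3.

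Minor isozymes of fermentation were among the strongest members. PDC6, the minor pyruvate decarboxylase, which in growing yeast is known as induced by sulfur limitation, had 3425 RPKM of mRNA in spores, against 0.789 RPKM in growing cells and 66.7 to 295 RPKM over the hours. PDC6 footprints were 7750 RPKM in spores, against 1.44 RPKM in growing cells and 39.3 to 1113 RPKM over the hours, a ratio of 6.97. PDC1, the main isozyme of growing cells, had 46032 RPKM of footprints in spores and 54575 RPKM in growing cells. TDH1, one of 3 genes for glyceraldehyde-3-phosphate dehydrogenase, had 16088 RPKM of footprints in spores, against 633 RPKM in growing cells and 429 to 4277 RPKM over the hours. TDH3, its main paralog, had 84862 RPKM in spores and 63146 RPKM in growing cells. ENO1, an enolase, had 70276 RPKM of footprints in spores, against 3789 RPKM in growing cells and 2316 to 29465 RPKM over the hours. ENO2, the enolase of growing cells, had 14480 RPKM in spores and 47248 RPKM in growing cells. These paralogs are similar in sequence, and the sources used here do not say how reads that match several of them were counted. All 3 members among the 24 listed glycolysis and fermentation genes had the footprint mark.

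Other carbon and energy members were split. SHH3 and SHH4, homologs of membrane subunits of succinate dehydrogenase, had 5820 and 8474 RPKM of footprints in spores, against 2.76 and 8.52 RPKM in growing cells and 3555 and 5909 RPKM at 10 h. GND2, the minor phosphogluconate dehydrogenase, had 5244 RPKM in spores, 1.75 times its value at 10 h. ILV5, of branched-chain amino acid synthesis, had 11256 RPKM of footprints in spores and 8205 RPKM in growing cells. GPP1, a glycerol phosphatase, had 3306 RPKM in spores, below 4439 RPKM in growing cells. FBP1, fructose bisphosphatase, had 1423 RPKM in spores, 1.50 times its value at 10 h. VID24, which directs that enzyme to breakdown, had 1422 RPKM of mRNA but 108 RPKM of footprints in spores, 0.625 times its value at 1.5 h. The hexose transporters HXT7 and HXT6 had 370 and 131 RPKM of mRNA; they are near-identical neighbours, so the split of reads between them is uncertain. Of the 22 members with these roles, 14 were highest in spores in footprints and 8 were not. Of the 4320 genes with spore mRNA of at least 100 RPKM, 15% were highest in spores.

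RNR2 and RNR4, the small subunit genes of ribonucleotide reductase, the enzyme that makes deoxyribonucleotides, were members. RNR2 had 4294 RPKM of mRNA in spores, against 762 RPKM in growing cells and 517 to 705 RPKM over the hours. Its footprints were 8526 RPKM in spores, against 1642 RPKM in growing cells and 792 to 1633 RPKM over the hours, a ratio of 5.19. RNR4, its partner, had 6200 RPKM of footprints in spores, 3.38 times its value at 10 h. RNR1, the main large subunit, had 72.0 RPKM of footprints in spores, against 297 RPKM in growing cells and 1816 RPKM at 1.5 h. In a list of 10 genes of the enzyme and its control, written after these values were seen, 5 had the footprint mark, which were RNR2, RNR4, RNR3 (a minor large subunit), HUG1 (an inhibitor) and WTM1 (which holds the small subunit in the nucleus). RNR3, HUG1 and WTM1 had 179, 1406 and 5000 RPKM of footprints in spores, 3.22, 3.70 and 2.40 times their highest other states.

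Of the 15 members with roles in ribosome assembly, RNA and translation none had the footprint mark and 4 were highest in spores in footprints. Of the 4320 genes with spore mRNA of at least 100 RPKM, 1.25% had that mark and 15% were highest in spores. In footprints 4 of the 15 were under 0.5 times another state, beside 49.3% of the 4320 genes. The total RNA mark was met by 12 of the 15, beside 9.26% of the 4320 genes. The total RNA mark left out growing cells, which the footprint mark included, so the counts of these marks rest on unlike comparisons. TMA22 and KTI11, of translation and of tRNA and diphthamide modification, had the most footprints of the 15, 867 and 577 RPKM in spores, 0.92 and 1.36 times their highest other states. Growing cells gave the highest other mRNA value for 8 of them. PXR1, of ribosomal RNA processing, had 1048 RPKM of mRNA in spores, against 347 RPKM in growing cells and 162 to 221 RPKM over the hours. PXR1 footprints were 58.8 RPKM in spores, against 355 RPKM in growing cells. TMA23, another ribosome assembly gene, had 28.2 RPKM of footprints in spores, against 157 RPKM in growing cells. HMT1, an arginine methyltransferase of RNA-binding proteins, had 111 RPKM in spores, against 432 RPKM in growing cells. NAF1, of small nucleolar RNA particles, had 43.1 RPKM in spores, against 137 RPKM in growing cells. CRF1, a corepressor of ribosomal protein genes, was highest in spores, at 320 RPKM and 1.47 times. ANB1, the form of translation factor eIF5A made at low oxygen, had 1234 RPKM of mRNA and 237 RPKM of footprints in spores, 0.52 times its value at 8 h.

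Transport and regulation varied from gene to gene. AGP3, an amino acid permease, had 175 RPKM of footprints in spores, against 2.72 RPKM in growing cells and 7.95 to 14.4 RPKM over the hours, a ratio of 12.1. Its mRNA was 403 RPKM in spores, 3.08 times its highest other state. PHO84, the phosphate transporter, had 7508 RPKM of mRNA and 1255 RPKM of footprints in spores, against 2212 RPKM of footprints at 10 h. ZRT1 and FET4, which carry zinc and iron, had 468 and 28.9 RPKM of footprints in spores, below 773 and 62.3 RPKM at 1.5 h. THI7, the thiamine transporter, had 99.0 RPKM, against 482 RPKM in growing cells. AQR1, a drug and acid exporter, had 313 RPKM of mRNA and 4.41 RPKM of footprints in spores, from 13 recovered footprint reads. STP4, a zinc finger protein, had 774 RPKM of mRNA in spores, 7.08 times its highest other state, and 265 RPKM of footprints, 2.32 times. LEE1, another zinc finger protein, had 2519 RPKM of footprints in spores, 2.90 times, and SUT2, a zinc cluster protein, had 279 RPKM, 2.12 times. RME1, the repressor of meiotic entry, had 645 RPKM of mRNA in spores, and its footprints were 458 RPKM in spores and 464 RPKM at 10 h. FUS3, the mating kinase, and AGA2, a subunit of a-agglutinin, had 236 and 105 RPKM of footprints in spores, below 259 RPKM at 1.5 h and 159 RPKM in growing cells.

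None of 26 early and none of 23 middle meiotic genes found in the tables was a member, and of 37 spore wall and late genes SPS100 was, beside 1.78% of all genes that are members. SPS100, of spore wall maturation, had 1945 RPKM of mRNA in spores, against 8.74 RPKM in growing cells, 19.3 to 126 RPKM from 1.5 to 8 h and 880 RPKM at 10 h. SPS100 footprints were 23036 RPKM in spores and 28718 RPKM at 10 h, and footprints over mRNA in spores were 11.8, the highest of the members. In all, 33 members were in one of the 26 lists of general knowledge, and 9 lists held no member. A non-coding gene overlaps SPS100 on the opposite strand in the reference, as for PHO84 and YGL193C, and KTI11, ADF1 and MET17 overlap a listed gene. Whether reads were counted by strand is not stated in the sources used here.

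Several members had mRNA and almost no footprints in spores. PRM7 had 945 RPKM of mRNA in spores, from 8424 recovered reads, against 196 RPKM in growing cells and 53.8 to 89.1 RPKM over the hours. PRM7 had 0 RPKM of footprints in spores, which allows up to 0.850 RPKM at 3 reads, and at most 4.07 RPKM in any of the 7 other states. YGR174W-A, YKL096C-B and YKL097C also had 0 RPKM, which allows up to 64.1, 19.2 and 4.93 RPKM. YDL187C had 0 RPKM as well, with no reference length for a limit. YOR032W-A counted among the 24 with the footprint mark from 1 recovered read, since it had 0 RPKM in the 7 other states. Of the 117 members with a reference length, 8 had under 20 footprint reads in spores. Such limits cover counting error only.

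At 0 h in sporulation medium, part of the set was at or above its spore level. The mRNA library of that time does not share the scale of the others, so libraries were divided by their medians for this comparison. On that scale 24 of 119 members had more mRNA at 0 h than in spores, beside 49.7% of the genes with spore mRNA of at least 100 RPKM. In footprints as deposited 40 members did, beside 31.2% of those genes. In mRNA divided by library medians, 7 of the 14 stress and drying members and 11 of the 22 carbon and energy members were higher at 0 h. Both counts were near the 49.7% of genes that were higher at 0 h. None of the 16 sulfur members was higher at 0 h. NCA3, of the SUN family of cell wall proteins, was 5.20 times its spore level at 0 h, FMP46, a mitochondrial protein, 3.14 times, GCY1, an aldo-keto reductase, 3.38 times, SPG1 2.28 times and TDH1 1.76 times. GRE1, SHH3 and GRX8 lay at the other end, at 0.0028, 0.0031 and 0.020 times. In footprints, TDH1 had 16088 RPKM in spores and 13284 RPKM at 0 h, and HSP30 had 269 RPKM in spores and 694 RPKM at 0 h. With 0 h counted among the states, 20 members had the footprint mark, and TDH1, HSP30, SPG1 and ISF1 lost it.

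The parallel libraries, which the choice of members did not use and which hold no spores, tested the members between 6 h and 1.5 h in sporulation medium. limma with Benjamini-Hochberg adjustment was used, and all 119 members were tested. In mRNA 14 members rose and 43 fell at 6 h, beside 13.4% of 5967 genes that rose and 50.9% that fell. In footprints 15 members rose and 44 fell, beside 16.0% and 43.8% of genes. All genes together shifted by a median of -0.68 in mRNA and -0.51 in footprints (log2), and the members' medians were -0.56 and -0.50. With each library centred on its median, 23 members rose and 14 fell in mRNA, beside 1275 and 1577 genes, and 21 rose and 21 fell in footprints, beside 1303 and 1567 genes. All 14 mRNA rises and all 15 footprint rises held under that centring, as did 14 of the mRNA falls and 21 of the footprint falls. In both assays 13 members rose and 31 fell, and none was called in opposite directions. The same joint counts over all genes are not given here, so these describe the members only. Without the 6 h footprint library of replicate 2, 34 members passed in footprints in place of 59.

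SHH3 rose most in mRNA, with 404 and 847 RPKM at 6 h, against 24.9 and 12.9 RPKM at 1.5 h. The groups did not overlap, and the log2 change was 4.95 ± 0.44 (SE; 5.63 relative to the all-gene median; limma adjusted p = 3.03e-05). Its footprints rose too, with 349 and 372 RPKM at 6 h, against 20.2 and 26.0 RPKM at 1.5 h (log2 change 3.92 ± 0.44; limma adjusted p = 0.000105). GRE1 footprints were 6441 and 6345 RPKM at 6 h, against 480 and 553 RPKM at 1.5 h, a rise of 3.63 ± 0.37 (limma adjusted p = 5.89e-05), and its mRNA rose by 3.41. The other rises in mRNA among the largest 6 were ICS2, GRX8, YKL068W-A and PDC6, by 2.09, 1.70, 1.70 and 1.63. In footprints they were PDC6, MUP1, GRX8 and YKL068W-A, by 2.31, 2.11, 1.66 and 1.60. ICS2 lost its call without the 6 h mRNA library of replicate 2, where limma's adjusted p was 0.055. SIP18 and ENO1 rose as well, by 1.26 and 1.13 in mRNA and by 1.02 and 1.60 in footprints, and these rises held under median centring, while the mRNA rise of SIP18 was not called under quantile normalization.

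Of the members, MET6 fell most in mRNA. It had 161 and 125 RPKM of mRNA at 6 h, against 1006 and 458 RPKM at 1.5 h, and fell by 2.25 ± 0.39 (SE; limma adjusted p = 0.00104), or by 1.57 relative to the all-gene median. In footprints MET6, MET17 and CYS3 fell, with log2 changes of -2.04, -1.90 and -1.69, or -1.52, -1.39 and -1.18 relative to all genes. Of the 16 sulfur members, 1 rose and 8 fell in each assay, beside the 50.9% of genes that fell in mRNA and the 43.8% in footprints, and MUP1 was the one that rose. Relative to all genes, the sulfur members' medians were 0.13 in mRNA and -0.09 in footprints. MET2 and MET14 had mRNA changes of 0.27 and 0.24 and were not called. IFH1, a coactivator of ribosomal protein genes, fell in mRNA, with 73.0 and 52.8 RPKM at 6 h, against 277 and 291 RPKM at 1.5 h, and so did NCA3, with a log2 change of -1.54. SPS100 fell as well, with 24.6 and 38.2 RPKM of mRNA at 6 h, against 84.8 and 92.2 RPKM at 1.5 h, but lost its call under quantile normalization (limma adjusted p = 0.057). The mRNA changes of AQR1 and YDL187C were -1.86 and -1.73, but neither passed once libraries were centred on their medians, with limma adjusted p of 0.060 and 0.12, nor without the 1.5 h library of replicate 2 or the 6 h library of replicate 1. In footprints AQR1 and FET4 fell, with log2 changes of -2.02 and -1.80, and AQR1 lost its call without either the 6 h library of replicate 2 or the 1.5 h library of replicate 1. RRG9, a mitochondrial gene, had a change of -2.14 (limma adjusted p = 0.0429) that lost its call in most other settings, with 7.57 and 0 RPKM at 6 h, against 12.6 and 11.2 RPKM at 1.5 h. The stress and drying members had 5 rises and 4 falls of 14 in each assay. Of all genes, 13.4% rose and 50.9% fell in mRNA, and 16.0% rose and 43.8% fell in footprints.

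**Figure D5:**
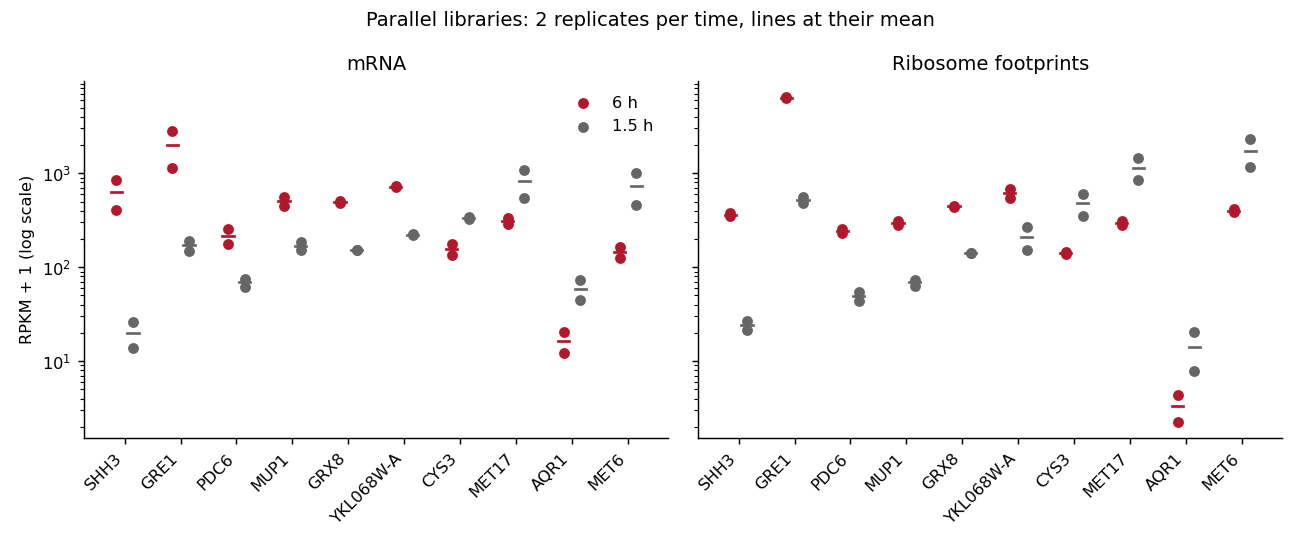
RPKM + 1 on a log scale for 10 members in the parallel mRNA (left) and footprint (right) libraries; red points are the 2 libraries at 6 h, grey points the 2 at 1.5 h, and lines their means. The 6 genes at the left rose at 6 h in both assays and the 4 at the right, CYS3, MET17, AQR1 and MET6, fell in both, although the mRNA falls of CYS3 and AQR1 did not pass with libraries centred on their medians.

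In the Ndt80 induction set, 4 of 5974 genes passed the threshold and none of them was a member. With so few genes called, the lack of members says little about the set. Over 9 libraries and 5974 genes, with hour as a linear term, 0 members were called by limma at an adjusted p under 0.05, beside 0.067% of genes that rose and 0.0% that fell; the smallest adjusted p of a member was 0.40. The genes called were NDT80 itself, which rose by 5.86 ± 0.47, GAL2, GAL7 and OPT1. At an unadjusted p under 0.05 there were 11 members (8 higher and 3 lower when induced) and 613 of all genes. No other tool was run on these libraries. SIP18 had 686 to 9768 RPKM in induced libraries (median 2327, n = 5), against 1057 to 1823 RPKM without induction (median 1384, n = 4), and the groups overlapped. GRE1 had 38.1 to 165 RPKM when induced (median 75.7), against 79.2 to 124 RPKM (median 94.3), also overlapping. SPG4 had 2714 to 10839 RPKM when induced, against 12331 to 15426 RPKM, without overlap, and its change of -0.97 ± 0.48 had a limma adjusted p of 0.50. SPS100 had 2.44 to 26.0 RPKM when induced and 23.5 to 50.9 RPKM without induction. These libraries end at 7.75 h and hold no spores. Each hour of an arm has 1 library, so the ranges and medians above span hours and not replicates. The fit takes 1 change per arm, so a change at only some hours can be missed. Without the induced library at 5.75 h, 106 genes passed in place of 4, still with 0 members.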

How the data were processed

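Ribosome footprints, mRNA and total RNA of 54 samples were deposited as tables of genes by libraries, of which 52 libraries were used and 6 columns were not. Per the file headers, the authors gave the values as RPKM. The deposited total RNA columns other than that of growing cells are treated as a score, because their values behave as reads times gene length per library total. The 4 h uninduced column was used as RPKM, and the line of hours under its header, which holds a value below 0, was left out. CASAVA, bcl2fastq and Bowtie2 are named, per the submitters' processing notes; no source used here names the counter, genome build or annotation. In the parallel data, 443 gene names stand out of order, so 11 columns were assigned by position.

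Read numbers were recovered by multiplying RPKM by the reference length minus 60 bases and dividing by what 1 read is worth in that library; 76.8% to 90.7% of values up to 100 reads were whole within 0.02. Recovered reads came to 2.92 to 3.58 times the read total that the RPKM scale implies, and to 8.33 times in the 0 h mRNA library, so RPKM levels serve for comparison within these data. Limits at 0 reads use 3 reads and cover counting error only.

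The 8 course states have 1 library per assay, so they were compared by ratio without a test. Tests used limma on log2(RPKM + 1) with a trended prior, over genes averaging at least 5 RPKM, with Benjamini-Hochberg adjustment over all genes and a threshold of 0.05. The parallel fit used 11 libraries and the induction fit 9, with hour as a linear term. No count test was run, since the unit is RPKM. The scripts were tested on simulated data.

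The members, gene lists and role groups were chosen with earlier results of these data known. By rule, named genes were the 10 highest in spore mRNA and in ratio, the 6 highest and lowest in spore footprints and in footprints over mRNA, members of a list, the 6 largest rises and falls called, and 3 on each side of a limit. Genes named beyond that, and the lists on sulfur and ribonucleotide reductase, were picked with their values already in view. Symbols came from RefSeq (assembly R64), which matched 5994 of 6679 genes and 117 of 119 members. Tools were Python 3.11.15, numpy 2.4.6, pandas 2.3.3, scipy 1.17.1, R 4.3.3 and limma 3.58.1.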

Additional observations from a re-analysis of the deposited data

Results flagged for a closer look

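SIP18 stood out in 1 library of the induction set. In the induced library at 7 h its mRNA was 9768 RPKM, while the next highest of the 5 induced libraries had 2681 RPKM and the lowest 686 RPKM. The gap between the 2 highest was 0.78 of the whole range of the group. It was the 1 group flagged of 10 examined for a library far from the others. Chance alone flags about 1 in 20 among replicates, but the libraries of these groups are of different hours. A far value and a change with time cannot be told apart here.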

How the results depend on the processing

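Footprints reached 1.5 times the highest other state in 37.0% of members and 3 times in 10.9%, against 20.2% at 2 times; of the 50 members with an mRNA ratio of 3, 36% reached 2 times. In total RNA the shares were 90.8% at 1.5 times and 36.1% at 3 times, against 73.9% at 2 times. They were 51.3% with libraries divided by their medians, 60.5% with 0 h added, 89.3% of the 75 members by the rule on median-divided libraries and 98% of the 50 members. Leaving out growing cells gave no other value for total RNA, where they were not used. The median footprint difference between spores and 10 h, 0.60, was 0.83 over the 75 members, 1.17 over the 50 and 0.50 relative to all genes. Footprints over mRNA in spores, -0.67, came to -0.45 over the 50 members and -0.85 without a filter on low values.

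Under induction, quantile normalization called 8 genes in place of 4, leaving out 1 library in turn gave 3 to 106, and members called stayed at 0 in each of these, or 11 at an unadjusted p. Between 6 and 1.5 h, members called were 37 in mRNA with libraries centred on their medians and 38 in footprints under quantile normalization, against 57 and 59. STP4, with a fall called, changed sign under quantile normalization. Leaving out 1 library gave 42 to 63 members in mRNA and 34 to 58 in footprints. Of the other values of tested genes named in the text under these settings, 457 kept their side of the threshold and 26 lost their call. None of the called changes among them reversed. Changes that were not called could change sign and still count among the 457. Under induction, SIP18 ran from -0.53 to 0.87 and SED1 from -0.79 to 0.46 (log2) as 1 library was left out in turn.

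With the replicate number as a block (a paired fit), 62 members passed in mRNA and 60 in footprints, with 3866 and 3569 genes. Deviations of same-numbered libraries correlated between -0.11 and 0.24, with 1 of 10 pairs over 0.1. The labels do not say whether same-numbered libraries stem from 1 culture, and these correlations over all genes cannot decide it. No such block was possible for the induction set, where the labels give hours.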
